A study of Arabidopsis thaliana with 28 samples.

Results

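The genes described here are 8 cold- and abscisic acid (ABA)-responsive genes of Arabidopsis thaliana, taken by name: COR15A (AT2G42540), COR15B (AT2G42530), KIN1 (AT5G15960), KIN2 (AT5G15970), RD29A (AT5G52310), RD29B (AT5G52300), COR413IM1 (AT1G29395) and COR413PM1 (AT2G15970). They were 8 of 23681 loci in the deposited table, and all 8 were among the 21023 loci left by a filter on low values. COR15B met that filter (at least 10 normalised reads in at least 2 libraries) through ABA-treated libraries alone. RNA was sequenced from whole seedlings in 28 libraries. The groups were the wild-type accession Col-0 and aba2-1, a mutant of the ABA biosynthesis gene ABA2, each kept for 3 h in liquid medium with ABA at 10 nM or 50 nM or with a mock solution. A further 4 lines carry the labels PYL6 CA, PYL5 CA, PYL4 CA and PYR1 CA and had the mock solution alone. PYR1 and its PYL relatives are receptors of ABA; in work on them, CA is the usual short form for a constitutively active variant, one that signals with no hormone bound. There were 2 libraries of Col-0 in mock, 2 of Col-0 at 10 nM and 3 of each other group. The labels put seedlings on plates for 7 days before treatment but give an age of 10 days after germination, and carry the line entry T3 on every library. The genetic background of the CA lines, the promoter driving each receptor and the number of independent insertions are not given in the sources used here. The labels do not say whether replicates were grown separately. The p-values therefore rest on the spread between libraries alone, and this may be technical.

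ABA binds PYR/PYL receptors, which then inhibit PP2C phosphatases and release SnRK2 kinases to phosphorylate bZIP factors of the ABF family. ABFs bind the ABA-responsive element (ABRE), whose core is ACGTG. Cold and dehydration act on many of the same genes through CBF and DREB2 factors, which bind the C-repeat or dehydration-responsive element (CRT/DRE), whose core is CCGAC. COR15A and COR15B encode small chloroplast stroma proteins that protect membranes in freezing. KIN1 and KIN2 encode small hydrophilic proteins that have been likened to fish antifreeze proteins. RD29A and RD29B encode hydrophilic stress proteins. COR413IM1 and COR413PM1 encode multispanning proteins of the chloroplast inner envelope and the plasma membrane. RD29B is a classical ABA reporter gene and RD29A a classical cold and drought reporter gene.

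The promoters of the RD29 pair are shown because the tandem copies differ in their numbers of the 2 cores. RD29A lies on the + strand at chr5:21240717-21243644 with 4 exons, and RD29B on the same strand at chr5:21237021-21239531 with 5 exons (RefSeq, TAIR10.1). The 250 bases before each annotated start follow, 5′ to 3′ on the + strand, from chr5:21240467-21240716 for RD29A and chr5:21236771-21237020 for RD29B, with every ACGTG or CCGAC on either strand in capitals (CACGT and GTCGG are the reverse complements).
RD29A: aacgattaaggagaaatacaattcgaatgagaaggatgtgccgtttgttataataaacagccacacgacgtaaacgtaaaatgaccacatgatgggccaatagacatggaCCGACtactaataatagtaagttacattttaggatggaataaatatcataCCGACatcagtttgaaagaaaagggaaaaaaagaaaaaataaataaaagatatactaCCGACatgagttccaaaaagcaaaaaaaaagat
RD29B: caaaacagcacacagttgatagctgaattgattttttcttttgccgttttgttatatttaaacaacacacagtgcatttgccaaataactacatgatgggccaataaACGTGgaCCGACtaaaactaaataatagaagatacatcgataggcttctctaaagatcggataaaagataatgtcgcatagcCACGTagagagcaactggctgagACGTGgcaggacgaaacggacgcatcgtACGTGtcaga
RD29A held 3 CCGAC and 0 ACGTG in this window, and RD29B held 4 ACGTG and 1 CCGAC. Of 27443 protein-coding genes, 22.9% held ACGTG and 12.0% held CCGAC in the same window, while 0.24% held at least 4 ACGTG and 0.18% held at least 3 CCGAC. The counts of CCGAC lay closer in the 1000 bases before the start codon, at 4 in RD29A and 3 in RD29B. Those of ACGTG were 1 and 6.

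The KIN sites are shown because both copies hold these cores at similar distances from the start codon although the genes differed in their values. KIN1 (chr5:5209717-5210826, + strand, 3 exons) and KIN2 (chr5:5211719-5212743, + strand, 3 exons) lie 892 bases apart. The first pair of sites lies upstream of the annotated starts and the second between the annotated start and the start codon. The last site is the KIN2 ABRE core nearest the start codon and is shown without a KIN1 partner. Capitals mark the core (RefSeq, TAIR10.1, + strand).
KIN1 ABRE core, 425 bases before the start codon, chr5:5209555-5209584: atgcaacaaaccCACGTtacataattctgt
KIN2 ABRE core, 439 bases before the start codon, chr5:5211515-5211544: atgcaacaacccCACGTtacatatttctat
KIN1 CRT/DRE core, 178 bases before the start codon, chr5:5209802-5209831: gataaatagctaCCGACataaggcaaaact
KIN2 CRT/DRE core, 185 bases before the start codon, chr5:5211769-5211798: aataaaaagctaCCGACataaggcaaaaat
KIN2 ABRE core, 128 bases before the start codon, chr5:5211826-5211855: ggtttcagattaCACGTGgcaccacacaag
In the 1000 bases before the start codon, a window added after the first one had been read, KIN1 held 3 ACGTG and 2 CCGAC and KIN2 held 4 and 1. The ABRE cores began 425, 211 and 138 bases before the start codon in KIN1, and 439, 218, 145 and 128 bases before it in KIN2. Within that length 54.2% of all genes held ACGTG and 39.4% held CCGAC.

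COR15A (chr2:17710441-17712330, - strand, 2 exons) and COR15B (chr2:17708593-17710433, - strand, 2 exons) lie 7 bases apart, so the 250 bases before COR15B are the end of COR15A. The CRT/DRE sites nearest their start codons are shown because they lie at almost the same distance from it, inside the annotated gene (RefSeq, TAIR10.1, - strand; capitals mark CCGAC).
COR15A, 266 bases before the start codon, chr2:17712215-17712244: acaatttcatggCCGACctgcttttttttt
COR15B, 265 bases before the start codon, chr2:17710121-17710150: acaacttgatggCCGACctcttttttcttt
In 1000 bases COR15A held 3 ACGTG and 3 CCGAC, and COR15B held 2 of each. COR413IM1 (chr1:10288129-10289666, - strand, 6 exons) held 4 ACGTG and 1 CCGAC. Its neighbour COR413IM2 (AT1G29390, chr1:10286067-10288103, - strand, 5 exons), a homologue outside the set that lies 25 bases away, held 4 ACGTG and 0 CCGAC. COR413PM1 (chr2:6949851-6951192, + strand, 4 exons), which has no tandem partner here, held 1 ACGTG and 2 CCGAC. The 1000-base windows of COR15B and COR413IM2 run into the neighbouring gene. The COR15B CCGAC that lies 825 bases before its start codon is inside COR15A. Most of the COR413IM2 window is inside COR413IM1. A match describes the letters of the window and shows no binding.

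**Figure D1:**
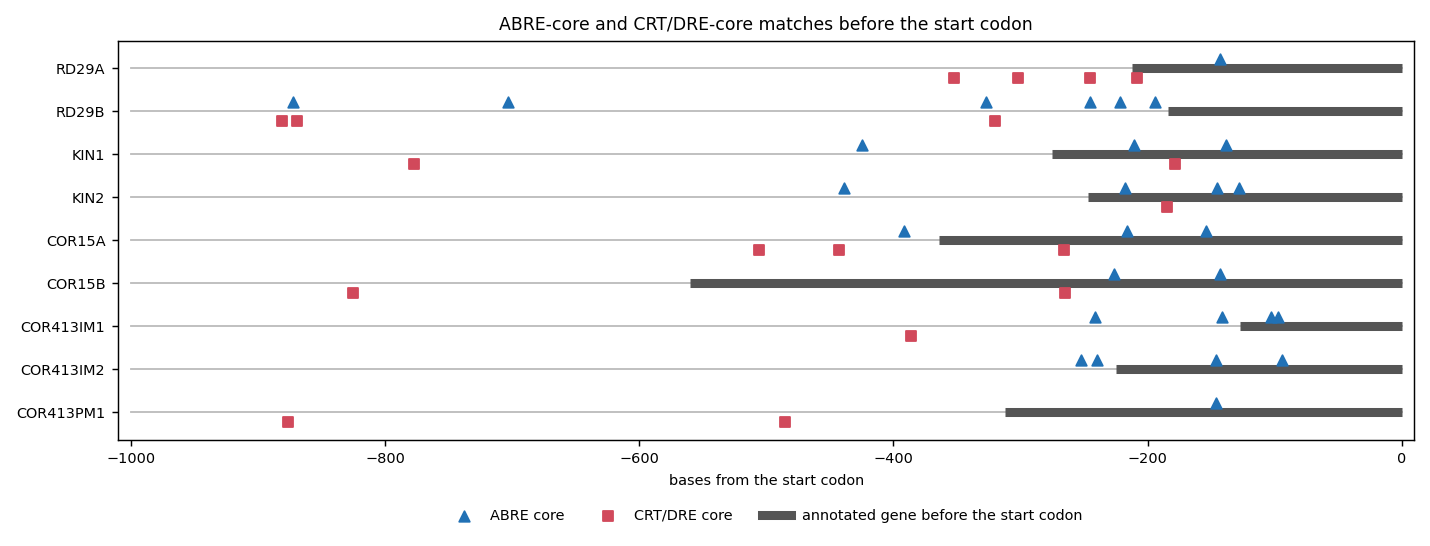
Positions of the ABRE core (triangles) and the CRT/DRE core (squares) on either strand in the 1000 bases before each start codon; the horizontal axis is the distance from the start codon in bases and the thick bar is the annotated gene before it. RD29B has 6 ABRE cores and 3 CRT/DRE cores, and RD29A has 4 CRT/DRE cores and 1 ABRE core. A CRT/DRE core lies 178 bases before the start codon in KIN1 and 185 bases before it in KIN2.

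Library totals ranged from 11.99 to 30.94 M reads. In aba2-1 10 nM ABA replicate 3, nuclear ribosomal RNA rows took 36.64% of reads, against 0.89% to 6.62% in the other libraries, and its smallest normalised value for 1 read was 4.41, so its RD29B value rests on 15 reads and its COR15A value on 13. Libraries of aba2-1 50 nM ABA and PYL5 CA lay farthest from their group means, with a median gene off by up to 0.282 and 0.235 log2 units, against at most 0.114 in the other groups. Summed reads of 4 shoot markers (247900 to 354800) and 6 root markers (1632 to 3289) were found in every library, with none of the 10 genes at 0 in a whole group. The root marker TIP2;3, which encodes a tonoplast aquaporin, was called in several of the comparisons that called KIN1. It averaged 306.2 ± 20.4 normalised reads in Col-0 mock (n = 2) and 90.63 ± 11.2 in aba2-1 mock (n = 3), where it was lower (-1.75 ± 0.31, limma, adjusted p = 0.0042). In aba2-1 TIP2;3 rose at 10 nM (1.35 ± 0.28, limma, adjusted p = 0.013) and 50 nM (1.75 ± 0.28, adjusted p = 0.00011), and it was higher in PYL4 CA than in aba2-1 mock (1.53 ± 0.28, adjusted p = 0.0035). It was also called lower in PYL5 CA and the line labelled PYR1 CA than in Col-0 mock, and in the F test among the CA lines. In each of these comparisons but 50 nM in aba2-1, the other 5 root markers did not pass. The median of the 6 was 0.10 log2 units in aba2-1 mock against Col-0 mock. At 50 nM in aba2-1 the root markers NRT2.1 and PIN2 fell and the shoot marker CA1 rose. So 3 of the 6 root markers and 1 of the 4 shoot markers were called there, where 24.8% of all loci tested were called. The part of these markers in the results was not tested. The combined reads of the PYL4, PYL5 and PYL6 loci and their CA rows were higher in the matching lines than in both mock groups, but those of PYR1 were 1022 ± 270 (SD, n = 3) in the line labelled PYR1 CA against 3172 ± 356 (n = 2) in Col-0 mock, so that line is named by its label throughout. A further row, MCCA-NOS, held reads in all 12 CA libraries and also in the aba2-1 50 nM ABA libraries (139.9, 34.05 and 5.323 normalised reads), at 0.873%, 0.213% and 0.0332% of the CA line mean, and in aba2-1 10 nM ABA replicate 2 (5.925); it was at 0 in every Col-0 and every aba2-1 mock library. Seed and embryo markers (4 genes) summed to 31.83 to 592.3 in the line labelled PYR1 CA and to at most 40.91 in any other group. In whole seedlings, fewer cells of a type and less RNA per cell cannot be told apart.

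All 8 genes rose in aba2-1 at 50 nM ABA, which raised or lowered 24.8% of all loci tested and raised 12.7%. With the spread weighted by group 5 of these 8 calls were left, without COR15A (adjusted p = 0.068), COR15B (adjusted p = 0.15) and COR413IM1 (adjusted p = 0.18 by limma). In Col-0, 10 nM ABA raised 1 of the 8, RD29B, where 0.0285% of all loci were called; the count was 0 without any 1 of the 4 libraries and 5 in a fit of the compared groups alone. At 50 nM in Col-0, 3 of the 8 rose (COR15A, KIN2 and RD29B) against 1.01% of all loci called and 0.79% raised; edgeR called 1 of the 8 and DESeq2 5. That count was 1 with the replicate block or without any 1 library, 6 with the spread weighted by group and 7 in a fit of the compared groups alone. In aba2-1, 10 nM ABA raised 3 (KIN1, KIN2 and RD29B) against 0.975% called and 0.504% raised. Without ABA, 1 of the 8 was called between the mutant and Col-0. This was KIN1, lower in the mutant, against 0.59% of all loci called and 0.281% lowered. COR15B could be tested because of its ABA-treated libraries, so its place in the 50 nM count carries less weight than the others.

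**Figure D2:**
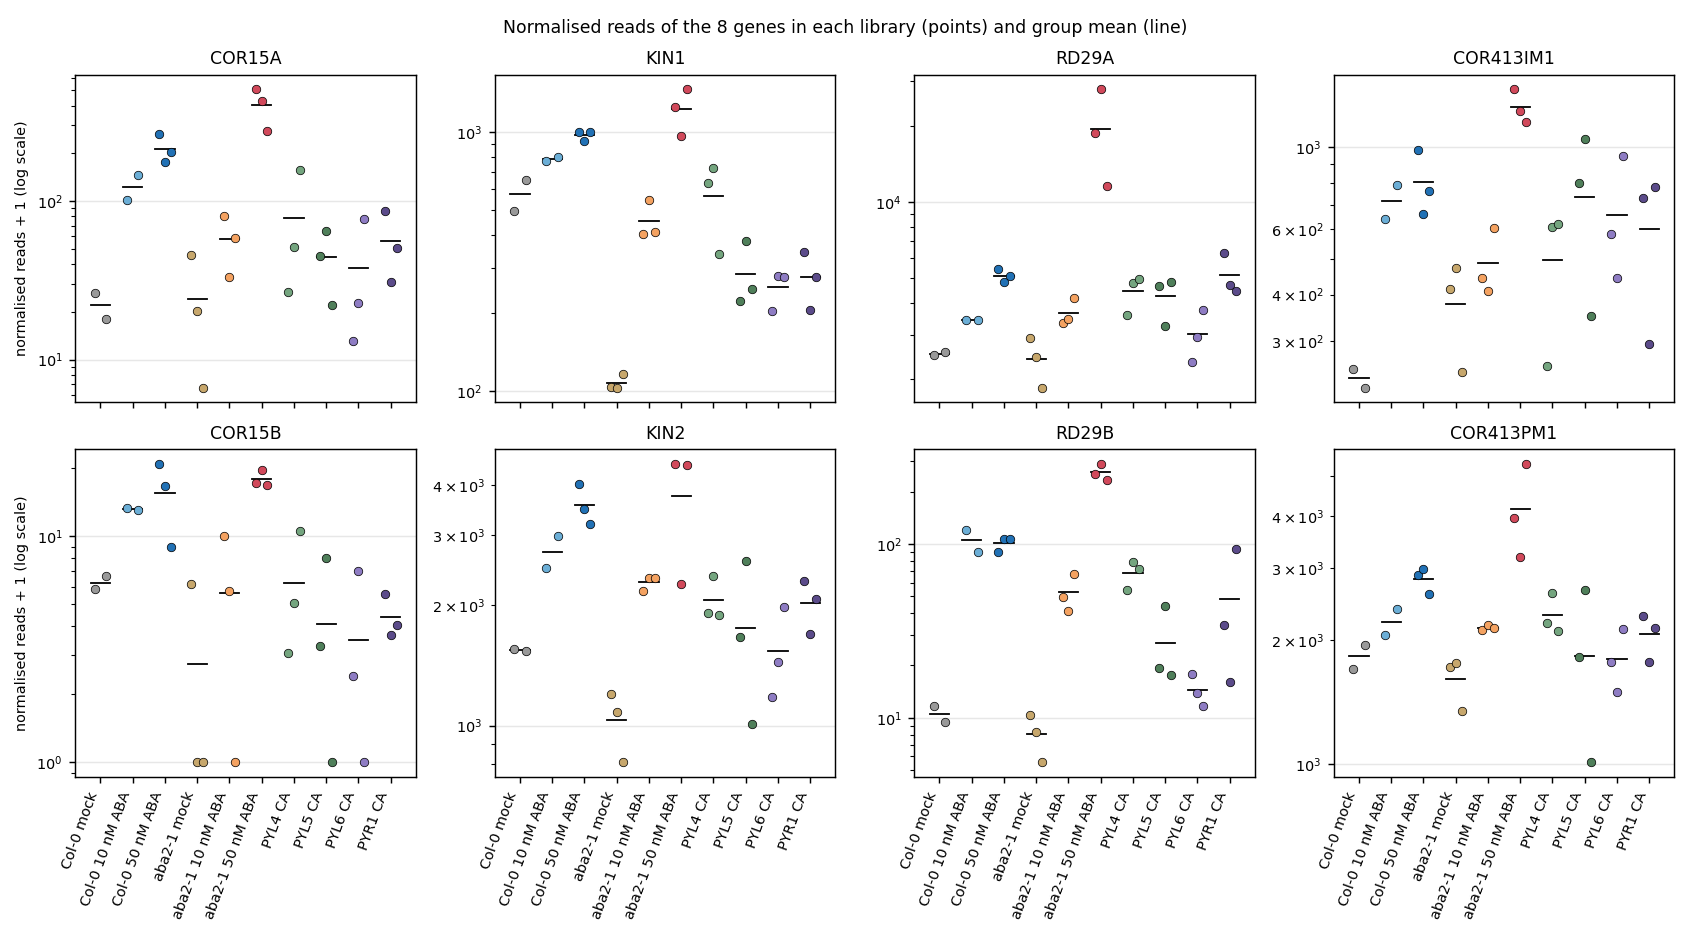
Normalised reads plus 1 (log axis) of each gene in every library (points), with the group mean as a line, in the 10 groups. In aba2-1 50 nM ABA the RD29A values (11600 to 27860) lie above all other groups, and KIN1 in aba2-1 mock (103 to 116) lies below all others.

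RD29A and RD29B stood at very different levels. RD29B gave 10.6 and 8.49 normalised reads in Col-0 mock, 119 and 88.8 at 10 nM, and 88.3, 105 and 105 at 50 nM ABA. The treated libraries lay above both mock libraries, and the 2 doses overlapped. In aba2-1 it gave 9.34, 7.24 and 4.54 in mock, 48.8, 40.3 and 66.2 at 10 nM and 252, 286 and 233 at 50 nM, with no overlap between any of these groups. RD29B rose by 3.30 ± 0.51 log2 units (SE) at 10 nM in Col-0 (limma, adjusted p = 0.0071), by 3.26 ± 0.47 at 50 nM (adjusted p = 0.00072), by 2.73 ± 0.42 at 10 nM in aba2-1 (adjusted p = 0.00078) and by 5.05 ± 0.42 at 50 nM (adjusted p = 1e-08). The Col-0 10 nM call was lost when any 1 of its 4 libraries was left out (adjusted p 0.1 to 0.26), whereas the other 3 held without any single library. In aba2-1, 50 nM exceeded 10 nM by 2.32 ± 0.42 (limma, adjusted p = 0.0015), while in Col-0 the difference was -0.05 ± 0.47 (adjusted p = 1).

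RD29A gave 2485 and 2563 normalised reads in Col-0 mock, 3418 and 3432 at 10 nM, and 5452, 4826 and 5117 at 50 nM. These 3 groups did not overlap, yet neither dose passed the limma test against mock (0.44 ± 0.29, adjusted p = 1, and 1.02 ± 0.27, adjusted p = 0.064). In aba2-1 it gave 2909, 2440 and 1854 in mock, 3319, 3457 and 4166 at 10 nM and 18760, 27860 and 11600 at 50 nM. The highest value, in replicate 2, came from the library of that group with the lowest total. RD29A rose by 2.95 ± 0.24 at 50 nM against aba2-1 mock (limma, adjusted p = 7.9e-09) and by 2.33 ± 0.24 against 10 nM (adjusted p = 2.1e-06), while 10 nM against mock gave 0.62 ± 0.24 (adjusted p = 0.39). The 50 nM difference was 2.64 (adjusted p = 4.4e-08) without the 3 libraries that stood apart, meaning the one rich in ribosomal RNA (aba2-1 10 nM ABA replicate 3) and the farthest library of each of the 2 groups with the widest departures (aba2-1 50 nM ABA replicate 2 and PYL5 CA replicate 2). The next farthest libraries, aba2-1 50 nM ABA replicate 3 (0.245) and PYL5 CA replicate 3 (0.21), stayed in.

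The distance between the copies of the RD29 pair narrowed with ABA. Per kilobase of transcript, the RD29A level was 215 times that of RD29B in Col-0 mock, 26.9 times at 10 nM and 42.0 times at 50 nM, and 278, 57.4 and 61.5 times in aba2-1 at the same doses. The within-library difference, RD29B minus RD29A in log2 units, moved by 2.23 ± 0.54 at 50 nM in Col-0 (limma over 15872 neighbouring pairs, adjusted p = 0.047; 0.895% of pairs called), by 2.11 ± 0.48 at 10 nM in aba2-1 (adjusted p = 0.032; 0.844%) and by 2.1 ± 0.48 at 50 nM in aba2-1 (adjusted p = 0.0032; 26.3%), the last lost with the spread weighted by group (adjusted p = 0.12). At 10 nM in Col-0 the value was 2.86 ± 0.59 (adjusted p = 0.15; 0.0315%). Leaving out any 1 library ended the first 2 calls (adjusted p 0.095 to 0.49 in Col-0 and 0.066 to 0.12 in aba2-1), and with a pseudocount of 4 they gave 1.91 and 1.72 and did not pass, which bears on a gene with as few reads as RD29B. In aba2-1, 50 nM against 10 nM left the difference at -0.01 ± 0.48 (adjusted p = 0.99), as both copies rose by similar fitted amounts there (2.32 and 2.33), with 13.1% of pairs called.

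KIN1 was the only gene of the set called between aba2-1 and Col-0 without ABA. It gave 497 and 654 normalised reads in Col-0 mock against 103, 103 and 116 in aba2-1 mock. The groups lay well apart, and KIN1 was lower in aba2-1 (fitted log2 difference -2.40 ± 0.27, limma, adjusted p = 2.2e-05), a call that held under every alternative run. With ABA, KIN1 gave 771 and 802 at 10 nM and 999.5, 921 and 1002 at 50 nM in Col-0, and 404, 546 and 411 and then 1251, 962 and 1456 in aba2-1. Each aba2-1 group stood apart from the others, and at 50 nM the genotypes overlapped. In aba2-1 KIN1 rose by 2.06 ± 0.24 at 10 nM (limma, adjusted p = 3.9e-05) and by 3.48 ± 0.24 at 50 nM (adjusted p = 7.8e-10), both held without any single library, while in Col-0 it gave 0.46 ± 0.29 (adjusted p = 1) and 0.77 ± 0.27 (adjusted p = 0.22).

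KIN2 moved less than its copy in aba2-1. In Col-0 the fitted rise at 10 nM was 0.81 ± 0.33 for KIN2 and 0.46 ± 0.29 for KIN1. At 50 nM in Col-0 it was 1.20 ± 0.30 for KIN2 and 0.77 ± 0.27 for KIN1. The Col-0 libraries of KIN2 gave 1552 and 1533 in mock, 2473 and 2974 at 10 nM, and 4033, 3486 and 3198 at 50 nM. Those of aba2-1 gave 1202, 1080 and 808 in mock, 2176, 2344 and 2344 at 10 nM, and 4507, 2258 and 4484 at 50 nM. Treated and mock libraries never overlapped, but in aba2-1 the 50 nM replicate 2 lay within the 10 nM range. KIN2 rose by 1.20 ± 0.30 at 50 nM in Col-0 (limma, adjusted p = 0.049), by 1.17 ± 0.27 at 10 nM in aba2-1 (adjusted p = 0.029) and by 1.81 ± 0.27 at 50 nM in aba2-1 (adjusted p = 4.2e-05). The first of these was also lost under 6 other alternatives (adjusted p 0.051 to 0.06, edgeR among them). The first 2 calls were lost with any 1 library left out (adjusted p 0.068 to 0.42 and 0.056 to 0.18), and the third held. In mock, KIN2 in aba2-1 against Col-0 gave -0.60 ± 0.30 (limma, adjusted p = 0.65, unadjusted p = 0.055). The aba2-1 mock libraries all lay below those of Col-0 mock.

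The ratio of the KIN pair differed between the genotypes and, in aba2-1, between doses. Per kilobase, the KIN2 level was 2.96 times that of KIN1 in Col-0 mock and 10.6 times in aba2-1 mock, and in aba2-1 it was 5.57 times at 10 nM and 3.39 times at 50 nM. In Col-0 it was 3.83 times at 10 nM and 4.05 times at 50 nM, and KIN1 minus KIN2 lay below mock in every treated library without passing (-0.35 ± 0.30, limma, adjusted p = 1, and -0.43 ± 0.27, adjusted p = 0.71). KIN1 minus KIN2 was lower in aba2-1 mock than in Col-0 mock (-1.80 ± 0.27, limma, adjusted p = 0.00081; 0.498% of neighbouring pairs called), but did not pass once Col-0 mock replicate 2 was left out (adjusted p = 0.071). In aba2-1 it rose by 1.67 ± 0.25 at 50 nM (limma, adjusted p = 3.7e-05, with 26.3% of pairs called), which held under every alternative. At 10 nM it rose by 0.89 ± 0.25 without passing (limma, adjusted p = 0.094, with 0.844% of pairs called). Between the aba2-1 doses it rose by 0.78 ± 0.25 (limma, adjusted p = 0.04, with 13.1% of pairs called). That last call ended without any 1 of aba2-1 10 nM ABA replicates 1, 2 and 3 or aba2-1 50 nM ABA replicate 2, with 0.53 (adjusted p = 0.32) when the 3 libraries that stood apart were left out. The KIN transcripts agree at 82.6% of aligned bases, their longest shared run is 58 bases, and 7.9% of KIN1 and 8.8% of KIN2 31-base words occur in the other, so part of their reads could have been assigned to either copy.

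**Figure D3:**
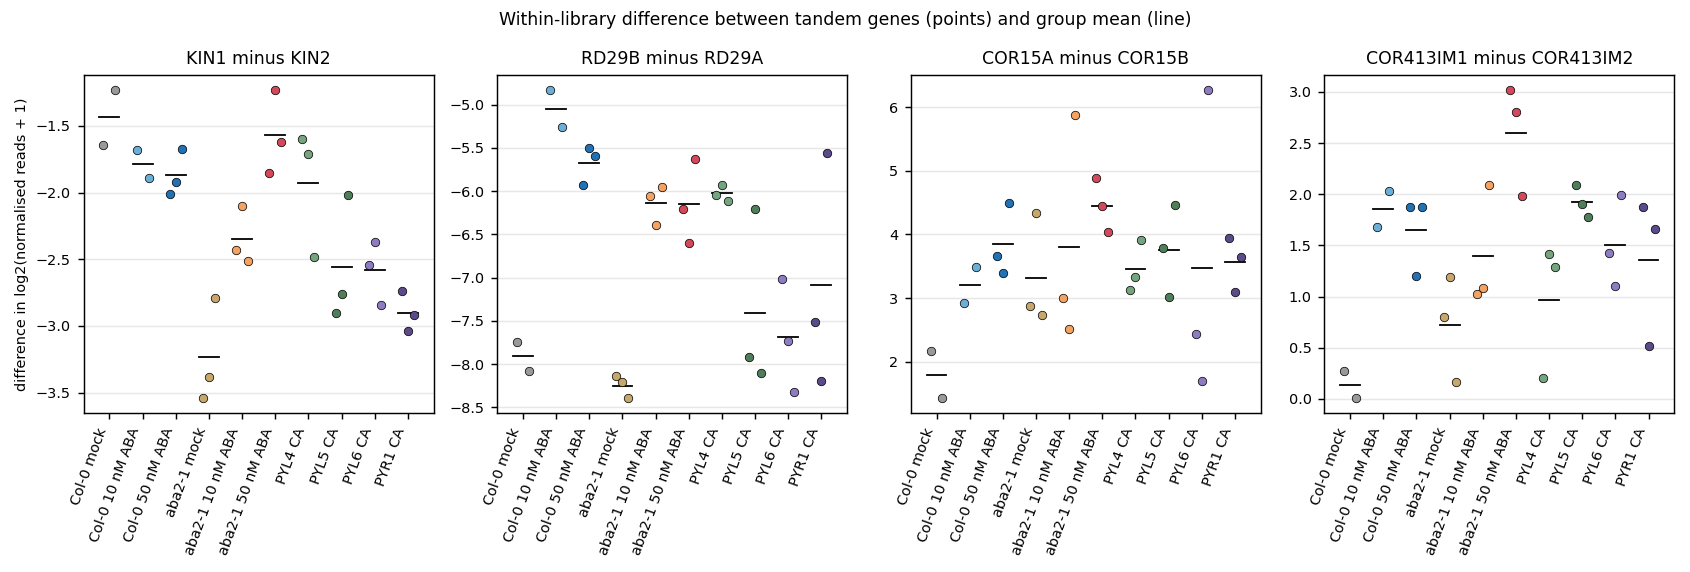
Difference in log2(normalised reads + 1) between the genes of each tandem pair within each library (points) and the group mean (line), in the 10 groups. KIN1 minus KIN2 averages -3.24 in aba2-1 mock and -1.57 in aba2-1 50 nM ABA, and RD29B minus RD29A averages -8.24 in aba2-1 mock and lies near -6 in both ABA-treated aba2-1 groups and in PYL4 CA.

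COR15A, the more abundant copy of its pair, gave 25.1 and 17.0 normalised reads in Col-0 mock, 99.9 and 145 at 10 nM and 262, 175 and 201 at 50 nM. In aba2-1 it gave 44.6, 19.3 and 5.67 in mock, 79.5, 32.0 and 57.4 at 10 nM and 504, 427 and 275 at 50 nM. In Col-0 the doses and mock did not overlap, whereas in aba2-1 mock and 10 nM did. COR15A rose by 3.3 ± 0.77 at 50 nM in Col-0 (limma, adjusted p = 0.041) and by 4.41 ± 0.69 at 50 nM in aba2-1 (adjusted p = 0.00013). The Col-0 call was lost with any 1 library left out (adjusted p 0.076 to 0.45), with the replicate block (adjusted p = 0.052), by edgeR (adjusted p = 0.057) and without the 3 libraries that stood apart (adjusted p = 0.05), and the aba2-1 call held without any single library. Its 10 nM values were 2.48 ± 0.84 in Col-0 (limma, adjusted p = 0.8) and 1.55 ± 0.69 in aba2-1 (adjusted p = 0.56).

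COR15B was near the limit of detection. It gave 4.83 and 5.66 normalised reads in Col-0 mock, 12.4 and 12.1 at 10 nM and 19.9, 15.8 and 8.01 at 50 nM, and in aba2-1 5.19, 0 and 0 in mock, 9.09, 4.74 and 0 at 10 nM and 16.2, 18.7 and 16.0 at 50 nM. No read was found in 5 of the 28 libraries, which allows up to 2.63 to 13.2 normalised reads there (3 reads, counting error only). In aba2-1, COR15B at 50 nM ABA against mock gave 3.29 ± 0.84 (limma, adjusted p = 0.0078). That call was lost with the spread weighted by group (adjusted p = 0.15) and in a fit of the compared groups alone (adjusted p = 0.079). COR15B entered the tests through ABA-treated libraries alone, so this p-value carries less weight than those of the other genes. Per kilobase, the COR15A level was 4.12 times that of COR15B in Col-0 mock and 10.3 to 24.3 times in the other groups. COR15A minus COR15B passed in none of the 20 comparisons, with 2.05 ± 0.96 at 50 nM in Col-0 (limma, adjusted p = 0.47) and 1.13 ± 0.86 at 50 nM in aba2-1 (adjusted p = 0.34), and an unadjusted p under 0.05 in 1 comparison, the former.

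COR413IM1 gave 250 and 224 normalised reads in Col-0 mock, 640 and 791 at 10 nM and 985, 661 and 761 at 50 nM. Treated Col-0 libraries all lay above mock, but neither dose passed (1.59 ± 0.50, limma, adjusted p = 0.68, and 1.74 ± 0.46, adjusted p = 0.072). In aba2-1 it gave 414, 470 and 246 in mock, 443, 408 and 605 at 10 nM and 1431, 1255 and 1169 at 50 nM, where the top group stood apart. COR413IM1 rose there by 1.81 ± 0.41 (limma, adjusted p = 0.0037).

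COR413IM2, next to it, passed in 0 of the 20 comparisons by limma, with 0 at an unadjusted p under 0.05, and had group means between 183 and 253 normalised reads. COR413IM1 minus COR413IM2 rose by 1.88 ± 0.37 at 50 nM in aba2-1 (limma, adjusted p = 0.00092), where 26.3% of neighbouring pairs were called. It rose by 1.20 ± 0.37 from 10 to 50 nM (limma, adjusted p = 0.037), where 13.1% of pairs were called. The second call was lost without any 1 of aba2-1 10 nM ABA replicates 1 and 2 or aba2-1 50 nM ABA replicates 1 and 2 (adjusted p 0.11 to 0.2). The 10 nM and 50 nM libraries overlapped in this difference. The first call held without any single library and was lost with the spread weighted by group (adjusted p = 0.098). These transcripts share a run of 59 bases and 85.9% of aligned bases, so some reads could be assigned to either.

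COR413PM1 gave 1704 and 1950 in Col-0 mock, 2053 and 2385 at 10 nM and 2877, 2985 and 2586 at 50 nM. Its aba2-1 libraries gave 1720, 1761 and 1342 in mock, 2113, 2180 and 2141 at 10 nM and 3966, 3177 and 5345 at 50 nM. The groups of each genotype did not overlap, and COR413PM1 rose by 1.35 ± 0.23 at 50 nM in aba2-1 (limma, adjusted p = 0.00024), the smallest of the 8 fitted differences there, and the Col-0 50 nM difference was 0.62 ± 0.26 (adjusted p = 0.37).

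Between the doses in aba2-1, 6 of the 8 rose from 10 to 50 nM (11.6% of all loci called, 6.08% raised): COR15A, KIN1, RD29A, RD29B, COR413IM1 and COR413PM1. With the spread weighted by group 1 of the 8 passed, and in a fit of the compared groups alone 1. COR15A was lost without aba2-1 10 nM ABA replicate 2 (adjusted p = 0.062) or aba2-1 50 nM ABA replicate 2 (adjusted p = 0.087). COR413IM1 was lost without any 1 of aba2-1 10 nM ABA replicates 1 and 2 and aba2-1 50 nM ABA replicates 1 and 2 (adjusted p 0.071 to 0.16). From 10 to 50 nM in Col-0, limma, edgeR and DESeq2 each called 0 of the 8, and limma called 0 loci in all (0%); 1 of the 8, RD29A, had an unadjusted p under 0.05.

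The 50 nM response was larger in aba2-1 than in Col-0 for 2 of the 8, where 2.05% of all loci were called and 0.609% were larger in aba2-1. The difference between the responses was 2.71 ± 0.36 log2 units for KIN1 (limma interaction, adjusted p = 0.00021) and 1.93 ± 0.36 for RD29A (adjusted p = 0.0045). RD29B gave 1.79 ± 0.63 (limma, adjusted p = 0.14), COR15A 1.13 ± 1.03 (adjusted p = 0.57) and KIN2 0.61 ± 0.40 (adjusted p = 0.42). COR15B gave 2.05 ± 1.26 (limma, adjusted p = 0.39) and COR413IM1 0.08 ± 0.61 (adjusted p = 0.96). COR413PM1 gave 0.73 ± 0.34 (limma, adjusted p = 0.27, unadjusted p = 0.046). KIN1 minus KIN2 also differed in its response, by 2.1 ± 0.37 (limma, adjusted p = 0.0044; 1.98% of neighbouring pairs). For KIN1 the lower start in aba2-1 mock enters this value, since at 50 nM the genotypes differed by 0.31 ± 0.24 (limma, adjusted p = 0.36). For RD29A the mock groups overlapped and the 50 nM groups did not (1.83 ± 0.24, limma, adjusted p = 2.3e-05), as 1 of 2 genes higher in aba2-1 than in Col-0 at 50 nM, where 21.1% of all loci were called and 10.6% were higher. In a fit of the compared groups alone the RD29A difference in response did not pass (adjusted p = 0.067). The other, RD29B (1.36 ± 0.42, limma, adjusted p = 0.025), was lost without any 1 of Col-0 50 nM ABA replicates 1 and 2 and aba2-1 50 nM ABA replicates 1 and 2 (adjusted p 0.05 to 0.089), without the 3 libraries that stood apart (adjusted p = 0.053) and with the spread weighted by group (adjusted p = 0.36). Of the 4 pair differences limma called 0 between the genotypes at 50 nM (21.2% of neighbouring pairs called), and 1 of them, COR413IM1 minus COR413IM2, had an unadjusted p under 0.05 (0.95 ± 0.37, adjusted p = 0.07).

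At 10 nM, aba2-1 against Col-0 gave 0 of the 8 by limma, edgeR and DESeq2, where limma called 0.328% of all loci; 2 of the 8, KIN1 and RD29B, had an unadjusted p under 0.05 and both were lower in aba2-1 libraries without overlap. The response to 10 nM differed between genotypes for 0 of the 8 by the same tools, with 0% of all loci called and 1 of the 8, KIN1, at an unadjusted p under 0.05.

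**Figure D4:**
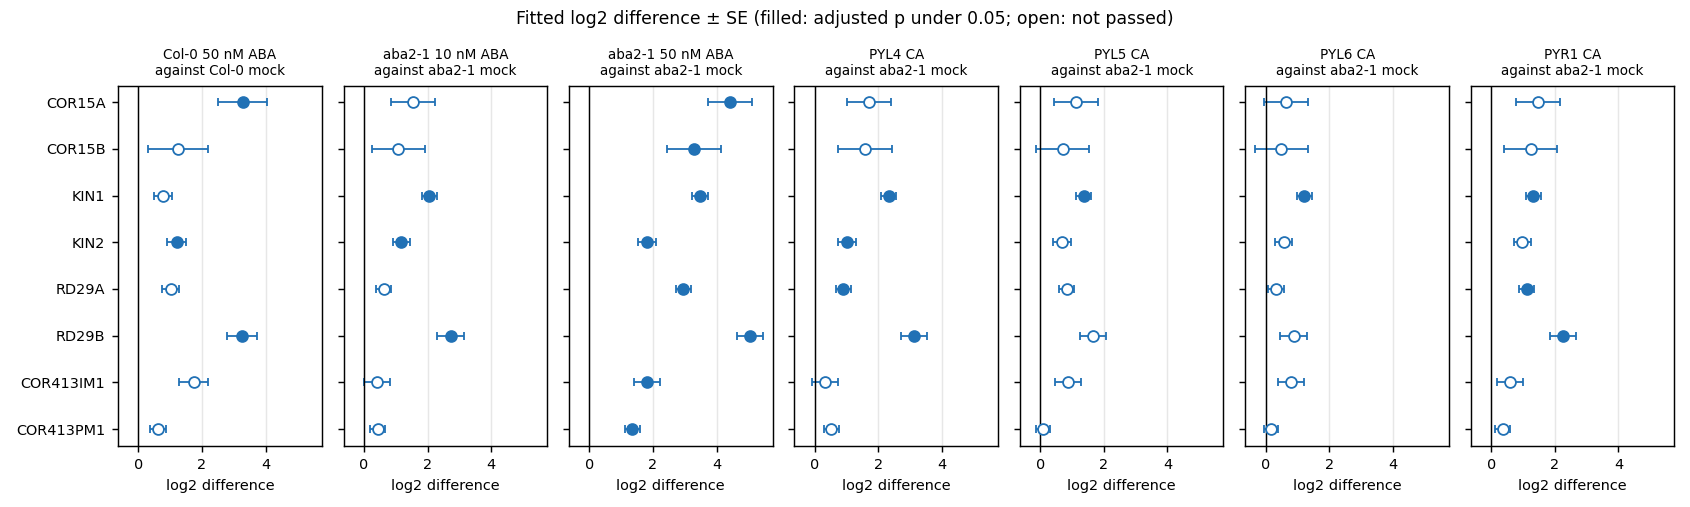
Fitted log2 difference ± SE of each gene in 7 comparisons; filled points passed an adjusted p of 0.05 and open points did not. All 8 are filled at 50 nM ABA in aba2-1, though COR15B entered the tests through ABA-treated libraries alone. Of the CA lines PYL4 CA has 4 filled points, the line labelled PYR1 CA 3, and PYL5 CA and PYL6 CA 1 each.

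Among the CA lines, all read against the same mock groups, PYL4 CA had the most of the 8 called against aba2-1 mock and the line labelled PYR1 CA the most against Col-0 mock (3 against 1 for PYL4 CA). A fit of the compared groups alone gave 1 and 3, and leaving out 1 library gave 0 to 1 in each. PYL4 CA was above aba2-1 mock in 4 of the 8 (2.48% of all loci called, 1.97% higher), which were KIN1, KIN2, RD29A and RD29B. RD29B gave 53.4, 77.9 and 71.1 normalised reads and lay above both mock groups in every library (3.12 ± 0.42 against aba2-1 mock, limma, adjusted p = 0.00012, and 2.69 ± 0.47 against Col-0 mock, adjusted p = 0.0059). The second value is the only one of the 8 called against Col-0 mock (1.44% of all loci, 1.22% higher), and it ended when Col-0 mock replicate 1 (adjusted p = 0.065) or replicate 2 (adjusted p = 0.16) was left out. KIN1 gave 633, 722 and 336, above aba2-1 mock throughout and overlapping Col-0 mock (2.32 ± 0.24 against aba2-1 mock, limma, adjusted p = 9.6e-06). KIN2 (1.01 ± 0.27, limma, adjusted p = 0.042) was lost with any 1 library left out (adjusted p 0.057 to 0.17). RD29A (0.90 ± 0.24, adjusted p = 0.043) was lost without any 1 library but aba2-1 mock replicate 1 (adjusted p 0.067 to 0.19). With the replicate block neither passed (adjusted p = 0.058 for KIN2 and 0.061 for RD29A). In PYL4 CA against aba2-1 mock, KIN1 minus KIN2 rose by 1.31 ± 0.25 (limma, adjusted p = 0.0041; 2.87% of pairs). RD29B minus RD29A rose by 2.22 ± 0.48 (limma, adjusted p = 0.011), and was lost without aba2-1 mock replicate 2 (adjusted p = 0.063) or PYL4 CA replicate 1 (adjusted p = 0.062). Against Col-0 mock the RD29B minus RD29A difference was 1.88 ± 0.54 (limma, adjusted p = 0.08, unadjusted p = 0.0019), with 0 of the 4 pairs and 1.27% of all pairs called.

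Hypoxia genes moved in the same line: 5 of 6 were higher in PYL4 CA than in aba2-1 mock (2.48% of all loci called, 1.97% higher), with summed reads of 4748 to 6393 against 1051 to 1924, and 2706 to 3620 in Col-0 mock. They also summed to 5040 to 5674 and 5985 to 12630 in Col-0 at 10 and 50 nM ABA, and to 2088 to 2947 and 2077 to 3176 in aba2-1. None of the 6 was at 0 in any group. Their part in the results was not tested.

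In the line labelled PYR1 CA, 3 of the 8 were higher than in aba2-1 mock (1.15% of all loci called, 1.04% higher): KIN1, RD29A and RD29B. RD29A gave 6274, 4706 and 4442 normalised reads, above both mock groups (1.11 ± 0.24 against aba2-1 mock, limma, adjusted p = 0.025). RD29B gave 33.4, 15.0 and 93.1, all above mock, with replicate 3 well above the other 2 (2.26 ± 0.42, limma, adjusted p = 0.01). KIN1 gave 345, 205 and 274, which lay between the aba2-1 and Col-0 mock groups (1.32 ± 0.24 against aba2-1 mock, limma, adjusted p = 0.0088). RD29A was lost without any 1 of aba2-1 mock replicates 2 and 3 or PYR1 CA replicates 1 and 2 (adjusted p 0.077 to 0.12), RD29B without aba2-1 mock replicate 2 (adjusted p = 0.059), and KIN1 without aba2-1 mock replicate 2 (adjusted p = 0.062) or PYR1 CA replicate 1 (adjusted p = 0.052). A fit of the compared groups alone left out RD29A (adjusted p = 0.074) and RD29B (adjusted p = 0.13).

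Against Col-0 mock (2.81% of all loci called, 2.11% higher and 0.704% lower), RD29A (1.01 ± 0.27, limma, adjusted p = 0.039) and RD29B (1.83 ± 0.47, adjusted p = 0.033) were higher in that line and KIN1 was lower (-1.08 ± 0.27, adjusted p = 0.028). Each of these was lost without Col-0 mock replicate 1 or replicate 2 and without 2 of the line's own libraries (RD29A 1 and 2, RD29B 1 and 3, KIN1 2 and 3; adjusted p 0.051 to 0.42 over all). Without PYR1 CA replicate 3, RD29B gave 1.16 (adjusted p = 0.13). KIN1 minus KIN2 was lower (-1.46 ± 0.27, limma, adjusted p = 0.0047; 2.3% of pairs), which did not pass when Col-0 mock replicate 2 was left out (adjusted p = 0.19). Of the 4 seed and embryo markers 3 were tested; CRA1, CRC and OLEO2 all rose in that line against aba2-1 mock, and CRC and CRA1 rose against Col-0 mock. None of the 4 was at 0 over that line's group, while 2 were at 0 in aba2-1 mock and 1 in Col-0 mock. OLEO2 was also higher in PYL4 CA than in aba2-1 mock (3.17 ± 0.78, limma, adjusted p = 0.029), where the 4 markers summed to 10.28 to 21.52. Their part in the RD29B value was not tested.

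In PYL5 CA and PYL6 CA, KIN1 gave 222, 378 and 248 in PYL5 CA and 202, 277 and 276 in PYL6 CA, all between the 2 mock groups. It was the only one of the 8 called against aba2-1 mock in either line, at 1.36 ± 0.24 (limma, adjusted p = 0.018; 0.157% of all loci called, 0.0951% higher) and 1.21 ± 0.24 (adjusted p = 0.044; 0.119% called, 0.0714% higher). The PYL6 CA call was lost with any 1 library left out (adjusted p 0.054 to 0.29), and that of PYL5 CA without any 1 of aba2-1 mock replicates 1, 2 and 3 or PYL5 CA replicate 3 (adjusted p 0.054 to 0.093). Among members that did not pass, RD29B in PYL5 CA lay above both mock groups without overlap (1.66 ± 0.42 against aba2-1 mock, limma, adjusted p = 0.12), as did RD29A (0.83 ± 0.24, adjusted p = 0.15). COR413IM1 gave 1.48 ± 0.46 in PYL5 CA (adjusted p = 0.1) and 1.40 ± 0.46 in PYL6 CA (adjusted p = 0.39) against Col-0 mock, without overlap. Without the 3 libraries that stood apart, 2 of the 8 were called in PYL5 CA against each mock group.

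Against Col-0 mock, KIN1 was lower in PYL5 CA (-1.05 ± 0.27, limma, adjusted p = 0.046; 1.59% of all loci called, 0.576% lower), but not without either Col-0 mock library or PYL5 CA replicates 1 or 3 (adjusted p 0.1 to 0.41), nor under 4 other alternatives (adjusted p 0.053 to 0.38). In PYL6 CA against Col-0 mock limma and edgeR called 0 of the 8 and DESeq2 1, with 2 of the 8, KIN1 and COR413IM1, at an unadjusted p under 0.05 and 0.157% of all loci called by limma. Also against Col-0 mock, PYL5 CA had a lower KIN1 minus KIN2 (-1.13 ± 0.27, limma, adjusted p = 0.032) and a higher COR413IM1 minus COR413IM2 (1.79 ± 0.42, adjusted p = 0.025; 1.9% of pairs). Both were lost without either Col-0 mock library or PYL5 CA replicate 1 (adjusted p 0.055 to 0.36).

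The lines differed among themselves in 2 of the 8, RD29B (limma F test, adjusted p = 0.013) and KIN1 (adjusted p = 0.02), where 3.36% of all loci were called. RD29B averaged 67.5 ± 12.6 normalised reads (SD, n = 3) in PYL4 CA, 47.2 ± 40.8 in the line labelled PYR1 CA, 26.0 ± 14.8 in PYL5 CA and 13.5 ± 3.18 in PYL6 CA. Every pair of neighbours in that order overlapped, and the call was lost without PYL6 CA replicate 3 (adjusted p = 0.07). KIN1 averaged 564 ± 202, 275 ± 69.9, 283 ± 83.6 and 252 ± 42.7 in the same order of lines, with the last 3 overlapping each other and PYL4 CA overlapping PYL5 CA and the line labelled PYR1 CA, and was lost without PYL4 CA replicate 1 (adjusted p = 0.15) or replicate 2 (adjusted p = 0.16). In a fit of the CA lines alone neither passed (adjusted p = 0.091 for RD29B and 0.097 for KIN1). COR15A and COR413IM1 spread widely within lines, from 25.7 to 157 and from 256 to 618 normalised reads in PYL4 CA alone, and neither was called in any CA comparison. Among the pairs, limma called 0 of 4 between the lines (3.73% of all pairs), while KIN1 minus KIN2 (adjusted p = 0.089) and RD29B minus RD29A (adjusted p = 0.14) had unadjusted p-values of 0.0053 and 0.011 in the limma F test.

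Across all 10 groups, every one of the 8 had its highest mean in aba2-1 50 nM ABA. The next group did not overlap it for COR15A, RD29A, RD29B, COR413IM1 and COR413PM1, while for COR15B, KIN1 and KIN2 Col-0 50 nM ABA did (KIN1, 974 ± 46.0 against 1223 ± 248). The lowest mean fell in Col-0 mock for COR15A and COR413IM1 (237 ± 18.9) and in aba2-1 mock for the other 6, among them KIN1 (107 ± 7.53) and RD29A (2401 ± 529). RD29A in Col-0 mock overlapped aba2-1 mock, and KIN1 did not overlap its neighbour, PYL6 CA.

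Group means of log2 values tracked each other to different degrees, given as description over 10 groups that share libraries' depth and treatment. Those of COR15B rest on few reads, with none in 5 of the 28 libraries. COR15B also passed the filter through ABA-treated libraries alone. Pearson's r was 0.96 for COR15A with RD29B, 0.95 for COR15A with KIN2 and for COR15B with KIN1, 0.90 for KIN1 with KIN2, 0.80 for RD29A with RD29B and 0.48 for KIN1 with COR413IM1. Outside the set, the loci with the most similar pattern were TSPO for RD29B (r = 0.99) and COR15A (0.98), AT3G05640 for COR15B (0.98), AT2G37870 for KIN1 (0.98), NAC019 for KIN2 (0.97), AT2G20320 for RD29A (0.99), AT5G05140 for COR413IM1 (0.95) and ABCG27 for COR413PM1 (0.98).

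Other genes of the ABA and cold pathways are given from lists of known members. Of 12 other ABA-induced genes (11 tested), 10 rose and 0 fell at 50 nM in aba2-1, with a median of 2.45 log2 units over the tested genes against 0.0034 over all loci, of which 12.7% rose, and 4 rose at 10 nM, where 0.504% of all loci did. RAB18, a dehydrin gene used as an ABA marker, rose from 16.2 ± 2.41 normalised reads in aba2-1 mock to 246 ± 64.4 at 10 nM and 1121 ± 337 at 50 nM (limma, 3.82 ± 0.25, adjusted p = 3.1e-09, and 6.0 ± 0.25, adjusted p = 1.6e-13). Of the ABA branch factors (7, 6 tested), 4 rose at 50 nM in aba2-1, where 12.7% of all loci rose, among them ABF3, a bZIP factor that binds ABREs (1.49 ± 0.11, limma, adjusted p = 2.5e-09). In Col-0 at 50 nM, 1 of these 6 rose, ABF1, and 4 of the 11 ABA-induced genes, against 0.79% of all loci.

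Of the cold branch factors (11, 10 tested), 6 rose and 1, ZAT10, fell at 50 nM in aba2-1 (24.8% of all loci called, 12.7% raised), with a median of 0.59, and 0 of the 10 passed in Col-0 at 10 nM by limma, edgeR or DESeq2, with 0 at an unadjusted p under 0.05. In Col-0 at 50 nM, 0 passed by limma or edgeR and 1 by DESeq2, with 4 at an unadjusted p under 0.05. CBF3, which binds CRT/DRE, stood at 2.22 ± 1.00 normalised reads in aba2-1 mock and 20.4 ± 8.98 at 50 nM (2.67 ± 0.55, limma, adjusted p = 0.0016), and CBF1 at 6.22 ± 3.30 and 22.3 ± 9.72 (1.73 ± 0.37, adjusted p = 0.0021), both low levels. Of 10 other cold-regulated genes, 6 rose at 50 nM in aba2-1, with a median of 1.17, among them the dehydrin genes ERD10 (1.72 ± 0.15, limma, adjusted p = 2.1e-08) and COR47 (2.06 ± 0.24, adjusted p = 1.4e-06). In Col-0 at 50 nM, 1 of the 10 rose, ADH1, where 1.01% of all loci were called and 0.79% raised. In PYL4 CA against aba2-1 mock, 4 of the 11 ABA-induced genes, 2 of the 10 cold branch factors (CBF1 and ZAT10) and 0 of the 10 other cold-regulated genes were higher by limma, against 1.97% of all loci. Of the last 10, 3 had an unadjusted p under 0.05 there, edgeR called 0 and DESeq2 2.

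Of 8 clock genes, 3 rose at 50 nM in aba2-1 (GI, PRR9 and TOC1) and 5 did not pass, where 24.8% of all loci were called. In Col-0 at 50 nM, GI, PRR9 and PRR5 rose, LHY fell and 4 did not pass, against 1.01% of all loci (PRR9 by 1.64 ± 0.21 in Col-0, limma, adjusted p = 0.00028, and by 1.82 ± 0.19 in aba2-1, adjusted p = 2.7e-07). Their part in the results was not tested.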

How the data were processed

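The authors deposited the signal of each gene in 1 table (23686 rows, 28 sample columns). Per the labels' protocols, RNA came from whole seedlings and libraries from a stranded kit. The submitters' processing notes name edgeR 3.28.0, Salmon 1.3.0 and Trimmomatic 0.38 and the genome build TAIR10, without saying what each was used for. In every column 100% of the deposited signal values were whole multiples of 1 step, within 0.01 read, so they are reads divided by 1 size factor per sample, called normalised reads here. 5 rows carry no locus and were kept out of tests.

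Tests used limma 3.58.1 in R 4.3.3 on log2(value + 1), with intensity trend and robust shrinkage, all 28 samples in 1 fit, two-sided, with Benjamini-Hochberg adjustment over the 21023 loci with a value of at least 10 in at least 2 samples and a threshold of 0.05. The log2(value + 1) scale understates changes of low genes. Tandem pairs were tested the same way on the within-sample log2 difference over 15872 pairs of neighbouring protein-coding genes. Both steps were run on simulated data in which all groups shared the same spread for a gene. That check does not cover the wider spread of the aba2-1 50 nM ABA and PYL5 CA libraries. On the recovered reads, edgeR 4.0.16 called 5131 loci at 50 nM ABA in aba2-1 (limma, 5210) and 195 in Col-0 (limma, 213); DESeq2 1.42.0 was another alternative. In each group, replicates differed beyond sampling noise (chi-square per degree of freedom 4.79 to 831), and none was counted as a copy.

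Sequences and positions are from RefSeq TAIR10.1. The 8 genes, the lists and the tests were chosen with earlier results of these data known. From the lists, up to 3 genes per comparison with the smallest p could be named; other names were chosen after their values were seen.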

Additional observations from a re-analysis of the deposited data

Results flagged for a closer look

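The response to 50 nM ABA differed between aba2-1 and Col-0, by a test of the difference itself, for RD29A (1.93 log2 units, limma, adjusted p = 0.0045), for KIN1 (2.71, adjusted p = 0.00021) and for KIN1 minus KIN2 (2.1, adjusted p = 0.0044), all larger in aba2-1. Without the 3 libraries that stood apart, RD29A gave 1.62 (limma, adjusted p = 0.0049) and KIN1 2.88 (adjusted p = 0.00014). RD29A did not pass in a limma fit of the compared groups alone (adjusted p = 0.067). The lower KIN1 level in aba2-1 mock (mean 107 normalised reads, against 575.5 in Col-0 mock) enters both KIN1 values. At 50 nM the genotypes differed by 0.31 ± 0.24 for KIN1 (limma, adjusted p = 0.36). For KIN1 minus KIN2 they differed by 0.30 ± 0.25 (limma, adjusted p = 0.39).

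A row of the table outside all comparisons, MCCA-NOS, held reads in aba2-1 libraries that were not labelled as CA lines. It gave 139.9, 34.05 and 5.323 normalised reads in aba2-1 50 nM ABA replicates 1, 2 and 3, which is 0.873%, 0.213% and 0.0332% of the mean of the CA lines, and rest on 164, 20 and 7 reads. Replicate 2 of aba2-1 10 nM ABA gave 5.925 (5 reads). The row was at 0 in every Col-0 and aba2-1 mock library. Groups of 2 or 3 libraries were too small for the check of single outlying libraries.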

How the results depend on the processing

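No called value of the 8 genes or the 4 pairs changed sign under any alternative. Of 42 gene calls, 21 held without any single library, and of 14 pair calls, 5 did. The values below are numbers of genes or pairs called; the cause of each change was not tested.

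Weighting the spread by group gave, for the 8 genes, 2 in Col-0 10 nM, 6 in Col-0 50 nM, 5 in aba2-1 50 nM, 1 between the aba2-1 doses, 1 in aba2-1 against Col-0 at 50 nM, 2 in PYL4 CA, 0 in PYL5 CA and 2 in PYL6 CA against Col-0 mock, and 0 in PYL5 CA against aba2-1 mock. For pairs it gave 2 in Col-0 10 nM, 2 in Col-0 50 nM, 0 in aba2-1 10 nM, 1 in aba2-1 50 nM, 0 between the aba2-1 doses, 1, 0, 2 and 2 in PYL4, PYL5, PYL6 and PYR1 CA against Col-0 mock, and 2 among the CA lines. Fitting only the groups compared gave, for genes, 5 in Col-0 10 nM, 7 in Col-0 50 nM, 1 between the aba2-1 doses, 1 in aba2-1 against Col-0 at 10 nM, 1 in the 10 nM and 1 in the 50 nM difference of responses, 3, 0, 1 and 1 in PYL4, PYL5, PYL6 and PYR1 CA against Col-0 mock, 0 and 1 in PYL5 and PYR1 CA against aba2-1 mock, and 0 among the CA lines. For pairs it gave 2 and 3 in Col-0 at 10 and 50 nM, 0 between the aba2-1 doses, and 1, 0 and 2 in PYL4, PYL5 and PYL6 CA against Col-0 mock.

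With the replicate block, the gene counts became 1 in Col-0 50 nM, 0 in PYL5 CA against Col-0 mock, and 2 in PYL4 CA and 0 in PYL6 CA against aba2-1 mock, and the pair count 0 in Col-0 50 nM. Same-numbered libraries did not deviate together (median correlation 0.002, over 0.1 in 27 of 117 pairs), so the numbers were not read as pairing. edgeR gave 1 gene in Col-0 50 nM and 0 in PYL6 CA against aba2-1 mock. DESeq2, not run for the F test, gave 5 in Col-0 50 nM, 2 in PYL5 CA and 1 in PYL6 CA against Col-0 mock, and 2 in PYL5 CA against aba2-1 mock. A pseudocount of 4 gave 0 pairs in Col-0 50 nM and 0 in aba2-1 10 nM. Without the library rich in ribosomal RNA, 0 genes passed in PYL5 CA against Col-0 mock, 0 pairs in aba2-1 10 nM and 1 between the aba2-1 doses.

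Leaving out the 3 libraries that stood apart, an alternative chosen after seeing the data, gave for genes 2, 2 and 1 in PYL4, PYL5 and PYL6 CA against Col-0 mock, 2 in PYL5 CA against aba2-1 mock and 4 among the CA lines, and for pairs 1 in Col-0 10 nM, 0 between the aba2-1 doses, 1 in PYL4 CA and 1 in PYL6 CA against Col-0 mock, 1 in PYL5 CA against aba2-1 mock and 2 among the CA lines. With 1 library left out at a time, gene counts were 0 to 0 in Col-0 10 nM, 1 to 1 in Col-0 50 nM, 2 to 2 in aba2-1 10 nM, 8 to 8 in aba2-1 50 nM, 4 to 6 between the aba2-1 doses, 1 to 2 in aba2-1 against Col-0 at 50 nM, 0 to 1, 0 to 1 and 0 to 1 in PYL4, PYL5 and PYR1 CA against Col-0 mock, 2 to 3, 0 to 1, 0 to 0 and 0 to 3 in PYL4, PYL5, PYL6 and PYR1 CA against aba2-1 mock, and 1 to 2 among the CA lines. Pair counts were 0 to 1 in aba2-1 against Col-0 mock, 0 to 0 in Col-0 50 nM and aba2-1 10 nM, 0 to 2 between the aba2-1 doses, 0 to 1 in aba2-1 against Col-0 at 50 nM, 0 to 2 and 0 to 1 in PYL5 and PYR1 CA against Col-0 mock, 1 to 2 in PYL4 CA against aba2-1 mock, and 0 to 1 among the CA lines. A Col-0 group of 2 then has 1 library, assumed to vary like the other groups. Depth limits COR15B most.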
